A study of Homo sapiens with 6 samples.

Results

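The genes described here are 10 targets of YAP and the TEAD transcription factors: THBS1, CTGF, CYR61, ANKRD1, AMOTL1, AMOTL2, AJUBA, LATS2, AXL and TEAD1. They were chosen by name as well-known targets, with earlier results of these data known. Their expression was read in T24 cells with and without knockdown of UBC9, the E2 enzyme that joins SUMO to its substrates. All 10 were among the 58174 genes listed, and all 10 were among the 12428 genes that passed the filter on low values. Expression was given as RPKM, the reads of a gene per kilobase of its length and corrected for the total of reads mapped. T24 is an established cell line from a human bladder cancer. The 3 shRNA-NC samples came from T24 cells that stably carried a scrambled control hairpin, and the 3 shRNA-UBC9 samples from T24 cells that stably carried 1 hairpin against UBC9. Both were made with lentivirus and selected with puromycin, and no other allele or agent was named for either group. The labels do not say whether the 3 samples of a group were separate cultures, so the p-values below measure only the spread between these samples, which may be technical.

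YAP and its paralogue TAZ are transcriptional coactivators at the end of the Hippo pathway. When the kinases STK3 and STK4 activate LATS1 and LATS2, YAP and TAZ are phosphorylated and held in the cytoplasm or degraded. When the kinases are quiet, YAP and TAZ enter the nucleus, bind TEAD1 to TEAD4 on DNA and raise the transcription of genes for matrix proteins, growth signals and the pathway's own inhibitors. In epithelial cells the pathway responds to cell density, to stretch and to the stiffness of the matrix.

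The samples held 28220000 to 36060000 counted reads, worked out from the size of 1 read in the RPKM values. Of the T24 cells' epithelial markers KRT7, KRT8, KRT18, KRT19 and EPCAM were expressed and CDH1 was near 0, and of the urothelial markers GATA3 and PPARG were expressed while UPK1A, UPK1B, UPK3A, KRT20 and KRT5 stayed below 0.1 RPKM. The summed RPKM of the 6 epithelial markers ran from 938 to 1110 in shRNA-NC and from 426 to 563 in shRNA-UBC9. KRT7, KRT8, KRT18 and KRT19 were lower in every shRNA-UBC9 sample. EPCAM did not fall, at 0.412 to 0.986 RPKM in shRNA-NC and 0.732 to 2.51 RPKM in shRNA-UBC9. The summed RPKM of the 8 urothelial markers ran from 22.9 to 30.1 and from 6.5 to 11.2. Of markers of other cell types, the summed RPKM of 6 leukocyte markers ran from 2.47 to 4.58 and from 20.4 to 49.9, of which CD68 held 18.6 to 48.4 in shRNA-UBC9 while PTPRC was at 0 to 0.102 in all samples and MS4A1 near 0. That of 4 endothelial markers ran from 2.64 to 3.26 and from 0.338 to 1.07, with PECAM1, VWF and KDR near 0. CDH5, the remaining endothelial marker, was lower in shRNA-UBC9 (log2 fold change -2.2, limma adjusted p = 0.00288). The summed RPKM of 6 fibroblast markers ran from 0.983 to 1.33 and from 0.882 to 1.30, with COL1A2, COL3A1, DCN and LUM near 0. The remaining fibroblast markers changed in opposite directions, which the sum does not show. In shRNA-UBC9 COL1A1 was higher (log2 fold change 0.95, limma adjusted p = 0.0276). PDGFRB was lower (log2 fold change -1.48, limma adjusted p = 0.00325). The 37 mitochondrial genes held 8.28% to 8.76% of all RPKM in shRNA-NC and 6.83% to 7.17% in shRNA-UBC9. The part of these shifts in the results below was not tested. In bulk RNA a change in every cell and a change in the share of cells that express a gene cannot be told apart.

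The promoters of the targets show where TEAD proteins could bind, since the TEAD domain recognises the hexamer CATTCC, or GGAATG when read on the other strand. RefSeq start sites (GRCh38.p14) were matched for 8 of the 10 genes, with 11 start sites in all; CYR61 and TEAD1 were not matched. The hexamer was present in the 250 bases before a start of 6 of these 8 genes, and before 6 of the 11 starts. For comparison, 11.9% of 35116 RefSeq promoters of the same length held at least 1, 0.94% held 2 or more and 0.0826% held 3 or more. The promoters of THBS1, CTGF and ANKRD1 are shown because they hold 1, 3 and 2 matches and belong to genes that were strongly lower, moderately lower and not called. Each is read 5′ to 3′ towards its gene and ends at the base before the start, with the hexamers in capitals. They lie at chr15:39580829-39581078 (+ strand) for THBS1, chr6:131951373-131951622 (- strand) for CTGF and chr10:90921088-90921337 (- strand) for ANKRD1.
THBS1: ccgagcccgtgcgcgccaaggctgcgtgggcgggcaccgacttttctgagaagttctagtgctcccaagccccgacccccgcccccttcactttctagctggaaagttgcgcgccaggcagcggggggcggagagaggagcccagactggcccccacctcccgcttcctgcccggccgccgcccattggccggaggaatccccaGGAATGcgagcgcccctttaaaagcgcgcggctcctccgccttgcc
CTGF: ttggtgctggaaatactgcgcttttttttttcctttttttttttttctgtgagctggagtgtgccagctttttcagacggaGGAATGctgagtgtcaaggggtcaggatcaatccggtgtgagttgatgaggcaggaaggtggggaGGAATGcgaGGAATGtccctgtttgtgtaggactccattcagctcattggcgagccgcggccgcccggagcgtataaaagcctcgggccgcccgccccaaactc
ANKRD1: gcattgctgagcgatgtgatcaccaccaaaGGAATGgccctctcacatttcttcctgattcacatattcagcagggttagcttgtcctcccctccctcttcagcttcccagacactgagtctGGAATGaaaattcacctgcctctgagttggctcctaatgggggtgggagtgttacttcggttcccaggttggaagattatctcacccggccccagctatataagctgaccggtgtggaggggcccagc

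The single THBS1 hexamer began 46 bases before the start. The CTGF hexamers began 169, 104 and 95 bases before the start, and those of ANKRD1 began 220 and 128 bases before. AMOTL2, AJUBA and AXL each had 2 RefSeq starts, and in each case the second held 1 hexamer and the first held none. In AMOTL2 it began 69 bases before the second start (promoter chr3:134374448-134374697, - strand). It is shown because AMOTL2 rose by the adjusted p while the genes above did not. ANKRD1 differed from AMOTL2 only in the side of the threshold, as its log2 fold change was 0.51 against 0.47.
AMOTL2: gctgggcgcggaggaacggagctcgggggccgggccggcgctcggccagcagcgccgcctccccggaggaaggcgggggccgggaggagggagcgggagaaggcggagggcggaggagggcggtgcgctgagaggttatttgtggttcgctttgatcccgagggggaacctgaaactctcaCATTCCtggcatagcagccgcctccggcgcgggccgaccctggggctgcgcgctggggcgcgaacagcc

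The hexamer began 59 bases before the second AJUBA start and 212 bases before the second AXL start. The windows of AMOTL1 and LATS2 held none, although LATS2 had 1 in the 50 bases after its start, where the other matched starts had none. No promoter of these genes held TGACTCA, the AP-1 motif found in 4.2% of all promoters, or the CArG box of SRF, found in 1.16%. Both strands were searched, and with neither motif present none overlapped a hexamer. A match of letters describes the sequence and does not show that a protein binds there.

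**Figure D1:**
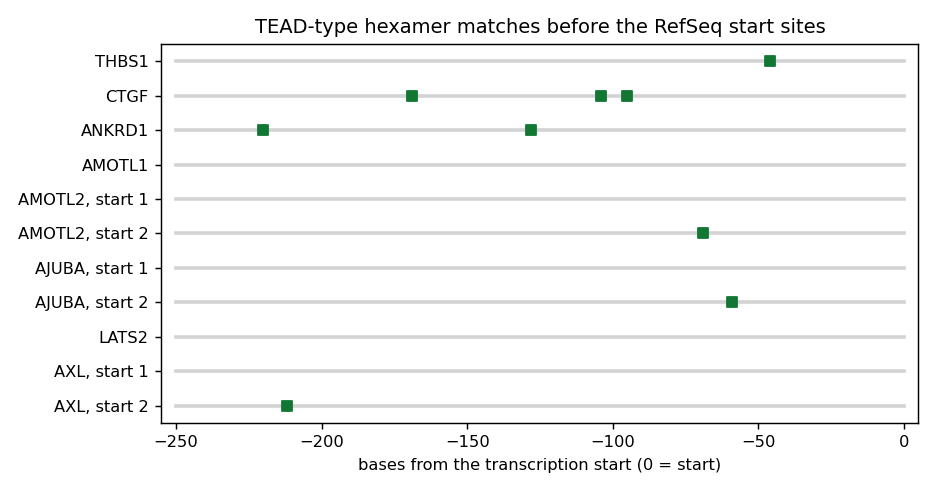
Positions of the TEAD hexamer before each matched RefSeq start site, in bases from the start (x axis), with 1 grey line for each promoter and 1 green square at the first base of each match on either strand. CTGF has 3 squares, ANKRD1 has 2, THBS1 and the second starts of AMOTL2, AJUBA and AXL have 1, and AMOTL1 and LATS2 have none before the start.

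The 10 targets did not move together when UBC9 was knocked down. THBS1 fell the most, AJUBA, AXL, TEAD1 and CTGF fell less, LATS2 and AMOTL2 rose, and CYR61, ANKRD1 and AMOTL1 did not pass the test. A gene was called a DEG, a differentially expressed gene, when its log2 fold change was over 1 in size and its limma adjusted p was below 0.05, with p adjusted over all 12428 genes. By this rule 1 of the 10 targets, THBS1, was a lower DEG, against 2.70% of all tested genes, and 0 were higher DEGs, against 5.20%. By the adjusted p alone 5 of 10 fell, against 18.0% of all genes, and 2 of 10 rose, against 18.8%. In 5 genes every shRNA-UBC9 sample lay below every shRNA-NC sample, against 25.4% of all genes, and in 2 genes every one lay above, against 25.7%. The shares that rose were near those of all tested genes, so the rises are not a trait of these targets. That 0 of 10 were higher DEGs says little. An exact two-sided permutation test over samples, gene by gene, gave p = 0.1, its smallest possible value, for these 7 genes, p = 0.3 for CYR61 and ANKRD1 and p = 0.4 for AMOTL1. As the targets were chosen with earlier results of these data known, the shares beside all genes are a description and not a test. The median log2 fold change was -0.38 over the 10 targets and 0.005 over all tested genes.

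**Figure D2:**
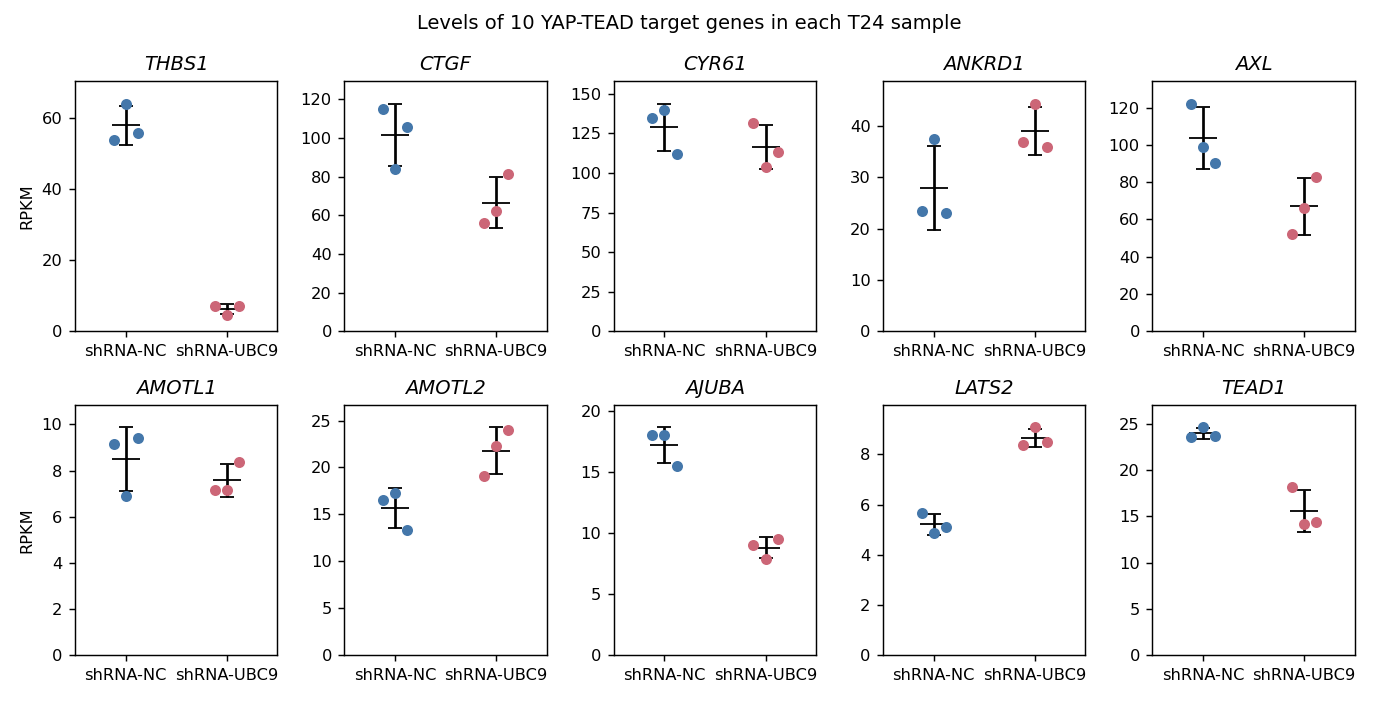
RPKM (y axis, from 0) of each of the 10 targets in the 3 shRNA-NC samples (blue points) and the 3 shRNA-UBC9 samples (red points), with the mean as a horizontal line and the SD as the error bar. The THBS1 samples are far apart between the groups, from 53.8 to 64.0 against 4.62 to 7.04, while the CYR61, ANKRD1 and AMOTL1 samples overlap.

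**Figure D3:**
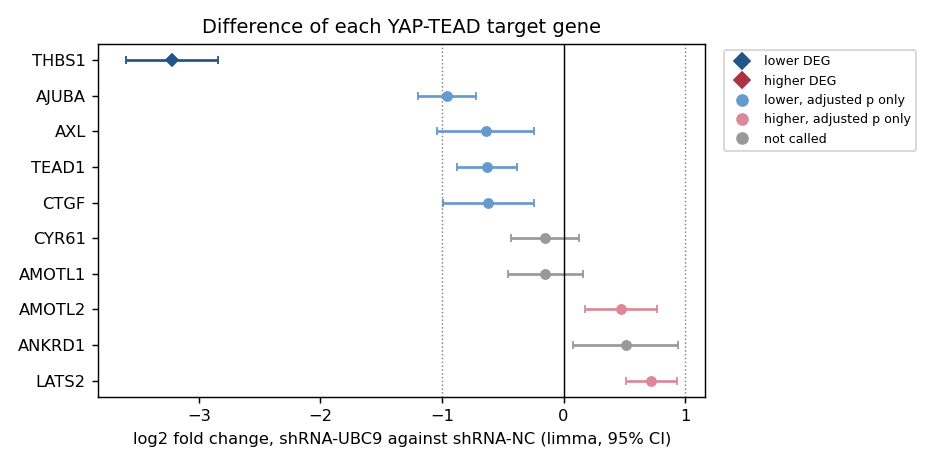
Log2 fold change of each target, shRNA-UBC9 against shRNA-NC (x axis), as the limma estimate with its 95% confidence interval, ordered from lowest to highest. The dotted lines mark a log2 fold change of 1 in either direction. THBS1 lies at -3.22 and is the only DEG, AJUBA lies just inside the line at -0.96, and LATS2 is the highest at 0.72.

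Of the secreted matrix proteins, THBS1 encodes thrombospondin 1, a glycoprotein that binds CD47 and CD36 and limits the growth of new vessels (chr15:39581079-39599466, + strand). Its level was 53.8, 64.0 and 55.9 RPKM in the 3 shRNA-NC samples and 7.04, 4.62 and 6.98 RPKM in the 3 shRNA-UBC9 samples. Every shRNA-UBC9 sample was far below the lowest shRNA-NC sample, and the groups did not overlap. The mean fell to 10.7% of the control, with a log2 fold change of -3.22 (95% CI -3.60 to -2.84, limma adjusted p = 1.41e-05). Among all 12428 tested genes it was the 4th most lowered. At least 1491 reads lay behind each of its values, and it stayed a DEG under all 15 of the alternative settings, with a log2 fold change of -3.32 to -3.02.

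CTGF, now named CCN2, encodes a secreted matricellular protein that promotes fibrosis and is the most used readout of YAP activity (chr6:131948176-131951372, - strand). It was measured at 115, 83.7 and 106 RPKM in shRNA-NC and at 55.8, 62.2 and 81.4 RPKM in shRNA-UBC9. The highest shRNA-UBC9 sample came close to the lowest shRNA-NC sample without crossing it. CTGF fell to 65.5% of the control mean (log2 fold change -0.62 ± 0.16 SE, limma adjusted p = 0.0201). The adjusted p rose above the threshold when 1 sample was left out, to 0.0737 without shRNA-NC replicate 1, 0.0696 without shRNA-NC replicate 3 and 0.0603 without shRNA-UBC9 replicate 2. It was also above it with no filter on low genes, at 0.0558.

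CYR61, now named CCN1, is the close relative of CTGF, and its protein binds integrins and supports adhesion and the growth of vessels (chr1:85580761-85584589, + strand). It was the highest of the 10 targets in RPKM in all 6 samples. Its level was 135, 140 and 112 RPKM in shRNA-NC and 131, 104 and 113 RPKM in shRNA-UBC9, so the groups overlapped over most of their range. The log2 fold change was -0.15, with a 95% CI of -0.43 to 0.13 and a limma adjusted p of 0.367. The interval leaves room for a modest fall or a slight rise.

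The 3 secreted proteins can be compared within each sample, which cancels any factor that scales a whole sample. The log2 ratio of THBS1 to CTGF was -1.10, -0.39 and -0.92 in shRNA-NC and -2.99, -3.75 and -3.54 in shRNA-UBC9. THBS1 was therefore lower relative to CTGF in every shRNA-UBC9 sample, with a difference of -2.63 between the log2 means. The ratio of THBS1 to CYR61 differed by -3.09, also without overlap. An exact two-sided permutation test gave p = 0.1 for both, which is the smallest that 3 samples against 3 can give. THBS1 fell so much more than CTGF and CYR61 that both ratios had to separate the groups. Their p adds nothing to the result of THBS1. The ratio of CTGF to CYR61 was -0.23, -0.74 and -0.08 in shRNA-NC and -1.24, -0.74 and -0.48 in shRNA-UBC9 (difference -0.47, exact permutation p = 0.2), so the gap between these relatives was not separated from the spread of the samples. In all 5 such ratios were computed, and with 0.1 as the smallest p none could pass a correction.

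ANKRD1 encodes a nuclear ankyrin repeat protein of stretched muscle, and in epithelial cells it is a common YAP readout (chr10:90912096-90921087, - strand). It was at 23.4, 37.5 and 23.0 RPKM in shRNA-NC and at 36.8, 44.3 and 35.9 RPKM in shRNA-UBC9. All 3 shRNA-UBC9 samples were above the lower pair of shRNA-NC samples, but shRNA-NC replicate 2 lay inside their range. The log2 fold change was 0.51 (95% CI 0.08 to 0.94, limma adjusted p = 0.0633), so ANKRD1 was not called. Without shRNA-NC replicate 2 it was 0.74 with an adjusted p of 0.00448.

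AXL encodes a receptor tyrosine kinase of the TAM family, which is activated by GAS6 and drives survival and invasion of tumour cells (chr19:41219223-41261766, + strand). Its level was 122, 98.7 and 90.5 RPKM in shRNA-NC and 52.2, 66.3 and 82.8 RPKM in shRNA-UBC9. The groups did not overlap, although shRNA-UBC9 replicate 3 was near the lowest shRNA-NC sample. AXL fell to 64.7% of the control mean (log2 fold change -0.64 ± 0.18 SE, limma adjusted p = 0.0226). The adjusted p was 0.0795 without shRNA-NC replicate 1, 0.0543 without shRNA-UBC9 replicate 2, and 0.0618 with no filter on low genes.

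LATS2, AJUBA, AMOTL2 and AMOTL1 encode inhibitors or scaffolds that act back on the pathway, and they went in both directions. LATS2 encodes the kinase that phosphorylates YAP and TAZ (chr13:20973036-21061586, - strand). It was at 5.68, 4.88 and 5.09 RPKM in shRNA-NC and at 8.40, 9.08 and 8.48 RPKM in shRNA-UBC9. The samples within each group were close to each other, and the groups were well apart. LATS2 rose to 166% of the control mean (log2 fold change 0.72 ± 0.09 SE, limma adjusted p = 0.00088), and its adjusted p stayed below 0.05 under all 15 alternatives. With at least 942 reads behind each value, it was the most thinly read of the targets, and counting error alone was up to 3.26%.

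AJUBA encodes a LIM domain protein that binds LATS kinases at cell junctions and holds them back from YAP (chr14:22971177-22982551, - strand). Its level was 18.04, 18.06 and 15.51 RPKM in shRNA-NC and 9.04, 7.89 and 9.51 RPKM in shRNA-UBC9. The groups were far apart, with the highest shRNA-UBC9 sample well below the lowest shRNA-NC sample. AJUBA fell to 51.2% of the control mean (log2 fold change -0.96 ± 0.11 SE, limma adjusted p = 0.000457). It stood just short of the fold limit of a DEG and passed it in 3 of 15 alternatives, at -1.03 without shRNA-NC replicate 3, at -1.01 without shRNA-UBC9 replicate 3, and with median scaling. The log2 ratio of AJUBA to LATS2, 2 genes whose products act against each other, was 1.67, 1.89 and 1.61 in shRNA-NC and 0.11, -0.20 and 0.17 in shRNA-UBC9. AJUBA RNA was thus well above LATS2 RNA in RPKM in the control and about level with it after knockdown (difference -1.70, exact permutation p = 0.1). Since AJUBA fell and LATS2 rose, each without overlap, this ratio had to separate the groups, and its p adds nothing to the results of the 2 genes.

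AMOTL2 and AMOTL1 encode angiomotin-like proteins, which bind YAP and keep it at junctions and in the cytoplasm. AMOTL2 (chr3:134355347-134375479, - strand) was at 16.5, 17.2 and 13.3 RPKM in shRNA-NC and at 19.04, 22.27 and 23.97 RPKM in shRNA-UBC9. The groups did not overlap, and the mean rose to 139% of the control (log2 fold change 0.47 ± 0.13 SE, limma adjusted p = 0.0216). The adjusted p was 0.0782 without shRNA-NC replicate 3, 0.0646 without shRNA-UBC9 replicate 2 and 0.0610 without shRNA-UBC9 replicate 3.

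AMOTL1 (chr11:94706431-94876748, + strand) was at 9.15, 6.90 and 9.42 RPKM in shRNA-NC and at 7.16, 7.17 and 8.39 RPKM in shRNA-UBC9. The lowest sample of all was a control, and the groups overlapped. The log2 fold change was -0.15, with a 95% CI of -0.46 to 0.16 (limma adjusted p = 0.403). The log2 ratio of AMOTL1 to AMOTL2 was lower in every shRNA-UBC9 sample, from -1.64 to -1.41 against -1.32 to -0.50 in shRNA-NC (difference -0.63, exact permutation p = 0.1).

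TEAD1 encodes a DNA-binding partner of YAP and is itself regulated by the complex (chr11:12674421-12944737, + strand). Its level was 23.7, 24.6 and 23.7 RPKM in shRNA-NC and 18.2, 14.1 and 14.4 RPKM in shRNA-UBC9. The control samples were nearly identical, and every shRNA-UBC9 sample was below them. TEAD1 fell to 64.9% of the control mean (log2 fold change -0.63 ± 0.11 SE, limma adjusted p = 0.00336), and its adjusted p stayed below 0.05 under all 15 alternatives.

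RPKM is given per length, so the levels of the targets can be set in order. The lengths used are not stated, and the order between genes depends on them. In shRNA-NC the order was CYR61, AXL, CTGF, THBS1, ANKRD1, TEAD1, AJUBA, AMOTL2, AMOTL1 and LATS2. The samples of neighbouring genes overlapped between CYR61 and AXL, AXL and CTGF, ANKRD1 and TEAD1, and AJUBA and AMOTL2. In shRNA-UBC9 it was CYR61, AXL, CTGF, ANKRD1, AMOTL2, TEAD1, AJUBA, LATS2, AMOTL1 and THBS1, with overlap between AXL and CTGF and between AJUBA and LATS2. THBS1 was the 4th highest target in every shRNA-NC sample and the 10th in every shRNA-UBC9 sample, whereas CYR61, AXL and CTGF kept the top 3 places throughout.

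The strand of counting is not stated, and exons of other genes overlap some of the targets in GENCODE release 44. THBS1 shares up to 166 bases with FSIP1 on the opposite strand, which was listed at 0.156 to 0.333 RPKM, and up to 260 bases with THBS1-AS1, which was not listed under this symbol. CTGF shares 148 bases with LINC01013, listed at 0 to 0.007 RPKM, and AMOTL2 shares 187 bases with the pseudogene RPL39P5, listed at 0 in every sample. Genes without a symbol share 496 bases with AMOTL1 and 67 with AXL on the opposite strand, and 50 with AJUBA on the same strand. CYR61, ANKRD1, LATS2 and TEAD1 share none.

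The factors that act on the targets were read from a list of coactivators and TEAD or VGLL partners beside TEAD1, of which 7 of 8 passed the filter and VGLL1 was below it. Of these 7, 2 were lower DEGs and 0 higher DEGs, against 2.70% and 5.20% of all tested genes. By the adjusted p alone 4 fell and 2 rose, against 18.0% and 18.8% (median log2 fold change -0.53). YAP1 was at 34.6, 38.5 and 36.7 RPKM in shRNA-NC and at 31.1, 19.2 and 21.6 RPKM in shRNA-UBC9. It fell to 65.6% of the control mean (log2 fold change -0.64 ± 0.17 SE, limma adjusted p = 0.0183), with the shRNA-UBC9 replicate 1 sample close to the controls. The adjusted p of YAP1 was 0.0562 without shRNA-NC replicate 2, 0.0576 without shRNA-NC replicate 3 and 0.0543 without shRNA-UBC9 replicate 2.

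WWTR1, the gene of TAZ, was at 26.3, 22.6 and 31.3 RPKM in shRNA-NC and at 9.77, 9.21 and 10.9 RPKM in shRNA-UBC9. The groups were far apart, and WWTR1 was a lower DEG at 37.3% of the control mean (log2 fold change -1.40 ± 0.13 SE, limma adjusted p = 0.000219). VGLL3, a cofactor that competes with YAP for TEAD, was the other lower DEG, at 2.18 ± 0.206 RPKM in shRNA-NC and 0.846 ± 0.135 RPKM in shRNA-UBC9 (SD, n = 3; limma adjusted p = 0.000638), and it lost the DEG call with a pseudocount of 1. TEAD2 fell (log2 fold change -0.53), VGLL4, a repressor of TEAD, rose (0.74), and TEAD3 rose by the adjusted p of 0.044 alone (0.26), a call kept in 4 of 15 alternatives. TEAD4 was not called (-0.33, limma adjusted p = 0.111).

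The list of 23 Hippo kinases and upstream regulators, all of which were tested, had a median log2 fold change of 0.06, with 2 lower DEGs and 0 higher DEGs, against 2.70% and 5.20% of all tested genes. By the adjusted p alone 5 fell (NF2, PTPN14, FAT1, FAT4 and DCHS1), 3 rose (LATS1, TAOK2 and MAP4K4) and 15 did not pass, among them STK3, STK4, SAV1, MOB1A and MOB1B of the core kinase cassette. The shares that fell and rose were near those of all tested genes, 18.0% and 18.8%. The DEGs were PTPN14 and FAT4. PTPN14, a phosphatase that binds YAP and restrains it, was at 16.6, 13.8 and 17.4 RPKM in shRNA-NC and at 7.39, 6.24 and 8.33 RPKM in shRNA-UBC9 (log2 fold change -1.11, limma adjusted p = 0.000617). FAT4, a large protocadherin upstream of the pathway in vertebrates, was at 1.62 ± 0.117 RPKM in shRNA-NC and 0.694 ± 0.278 RPKM in shRNA-UBC9 (SD, n = 3), and its fold no longer passed the limit without shRNA-UBC9 replicate 2 or with a pseudocount of 1. FAT1 and DCHS1 lost their calls without shRNA-NC replicate 1 or 3 and without shRNA-UBC9 replicate 1 or 2, which left 3 that fell. LATS1 and TAOK2 lost theirs without shRNA-NC replicate 3 and without shRNA-UBC9 replicate 1 or 2, which left 1 that rose.

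A further 15 genes that YAP or TAZ are known to raise were all tested, and they went in both directions, with a median log2 fold change of -0.11. By the adjusted p alone 6 fell, 5 rose and 4 did not pass, against 18.0% of all tested genes that fell and 18.8% that rose. Lower DEGs numbered 2 and higher DEGs 3, against 2.70% and 5.20% of all tested genes. MYOF, the membrane repair protein myoferlin, was at 85.0, 78.0 and 88.8 RPKM in shRNA-NC and at 35.5, 30.8 and 34.2 RPKM in shRNA-UBC9 (log2 fold change -1.32, limma adjusted p = 5.34e-05). NT5E, the cell surface enzyme CD73 that makes adenosine, went the other way, from 9.34, 8.36 and 11.02 RPKM to 40.4, 37.7 and 28.7 RPKM (log2 fold change 1.88, limma adjusted p = 0.000107). These groups were well apart in both genes.

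F3, the tissue factor that starts blood coagulation, rose from 50.7, 77.0 and 50.3 RPKM to 466, 173 and 144 RPKM. Its shRNA-UBC9 replicate 1 stood far above the other samples, and without it the log2 fold change of F3 was 1.44 rather than 1.96, still a DEG. IGFBP3, a secreted binding protein of insulin-like growth factors, rose from 2.71, 2.59 and 5.55 RPKM to 15.7, 13.4 and 8.81 RPKM (log2 fold change 1.82, limma adjusted p = 0.00283). TGFB2, a ligand of the TGF-beta family, was called a lower DEG from 4.0, 8.55 and 4.03 RPKM to 3.43, 1.008 and 1.69 RPKM (limma adjusted p = 0.029). The TGFB2 adjusted p was 0.0881 without shRNA-NC replicate 2, 0.0746 without shRNA-UBC9 replicate 2 and 0.0567 without shRNA-UBC9 replicate 3, and 0.0815 with no filter on low genes. Of the 15 genes 3 fell without shRNA-NC replicate 2 and also without shRNA-UBC9 replicate 2.

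**Figure D4:**
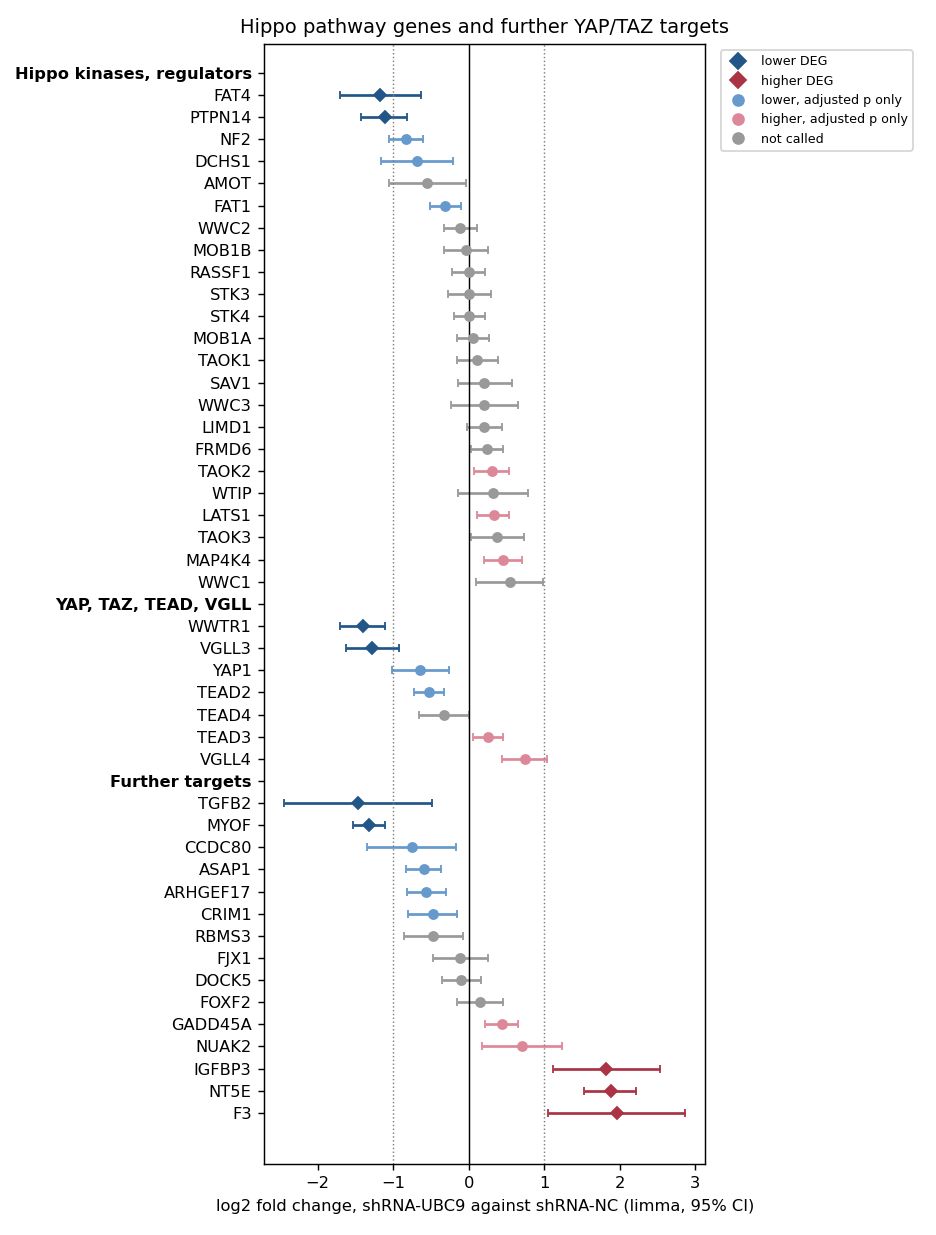
Log2 fold change, shRNA-UBC9 against shRNA-NC (x axis), of the tested genes in 3 lists around the 10 targets, as the limma estimate with its 95% confidence interval; diamonds are DEGs and the dotted lines mark a log2 fold change of 1. STK3 and STK4 lie near 0, LATS1 lies at 0.33, WWTR1 and VGLL3 lie below -1, and the further targets run from TGFB2 at -1.46 to F3 at 1.96.

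Relatives of single targets were read last. Of the other thrombospondins and the THBS1 receptors, 3 of 6 passed the filter and 0 were DEGs. Of all tested genes 2.70% were lower and 5.20% higher DEGs, so 0 of 3 says little. CD47 was at 6.18, 8.31 and 6.92 RPKM in shRNA-NC and at 12.1, 12.4 and 9.57 RPKM in shRNA-UBC9, and it rose by 0.66 on the log2 scale (limma adjusted p = 0.00773). THBS2 and THBS3 were not called, with log2 fold changes of -0.09 and 0.09, and THBS4, COMP and CD36 were below the filter. Among the CCN relatives of CTGF and CYR61, NOV alone passed the filter, and it was not called (-0.65, limma adjusted p = 0.26; -1.13 and 0.0237 without shRNA-UBC9 replicate 1). Beside AXL, the receptors TYRO3 and MERTK and the ligands GAS6 and PROS1 were read. Of these, 0 of 4 were called by limma, either at an adjusted p or as DEGs, and the median log2 fold change was -0.22. By the adjusted p alone 18.0% of all tested genes fell and 18.8% rose, so 0 of 4 says little as well.

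The 5 tested genes whose pattern over the 6 samples was most like that of THBS1 were ZFHX4-AS1, SERTAD4, GACAT2, LBH and TIMP3. Likeness was the root mean square difference in log2(RPKM + 0.1) after each gene's own mean was subtracted, and it ran from 0.160 for ZFHX4-AS1 to 0.377 for TIMP3. All 5 were lower in every shRNA-UBC9 sample, with log2 fold changes from -3.39 for ZFHX4-AS1 to -2.74 for LBH. They were picked for their likeness to THBS1, so a fall of this kind follows from the choice. ZFHX4-AS1 and GACAT2 are noncoding. In shRNA-UBC9 ZFHX4-AS1, at 0.0757 to 0.123 RPKM, rested on as few as 6 reads, GACAT2 on 15 and SERTAD4 on 41. ZFHX4-AS1 and SERTAD4 passed the filter only through their shRNA-NC values. The 0.1 added before the log shrinks such a fall, since the mean of ZFHX4-AS1 was 20.2 times lower, against 9.31 times for THBS1. The nearness of ZFHX4-AS1 to THBS1 thus rests on that setting. TIMP3 encodes an inhibitor of metalloproteinases that stays bound to the matrix, at 8.006, 6.285 and 8.995 RPKM in shRNA-NC and 1.54, 0.814 and 0.885 RPKM in shRNA-UBC9. The other targets, none of which changed as much as THBS1, were not among these 5, which also follows from the choice.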

How the data were processed

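Polyadenylated RNA of 3 shRNA-NC and 3 shRNA-UBC9 T24 samples was sequenced from Illumina TruSeq libraries. Per the study's methods, adaptors were trimmed and mapping to GRCh38 (hg38 in the submitters' processing notes) used the CLC Biomedical Genomics Workbench at default settings; the authors deposited RPKM values, 1 per gene and sample. The annotation release, strand and treatment of multiply mapped reads are not given in the sources used here. The 10 targets and all lists, written by hand from general knowledge, were chosen with earlier results of these data known.

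Genes with at least 0.5 RPKM in at least 3 of 6 samples were tested in limma 3.58.1 (R 4.3.3; lmFit, eBayes with a trend) on log2(RPKM + 0.1), a scale that understates the change of low genes. Benjamini-Hochberg adjustment covered all 12428 genes. No values were identical between samples. Depth was worked out with lengths from GENCODE release 44, for genes with 1 annotated transcript. The length of each tested gene was then the shortest that gave whole reads within 0.05 read in all samples. Such a length was found for 100% of tested genes, so these lengths were fitted and not taken from the annotation. An alternative with limma-voom on these reads was added after seeing the data. Whether a read pair counts as 1 is not given. Intervals of read counts cover counting error only. The fit was tested on simulated data. The level of the gene aimed at by the hairpin is not reported here. Named were every target, YAP1, WWTR1, all DEGs of the lists and the 5 genes most like THBS1; other list genes were named after their values were seen. Promoters came from RefSeq and gene positions from GENCODE, both on GRCh38. The settings tried are a pseudocount of 0.01 or 1, other filters, scaling, no trend, a replicate block and each sample left out. Tables and tests used Python 3.11.15 with scipy 1.17.1.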

Additional observations from a re-analysis of the deposited data

How the results depend on the processing

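The lower call of THBS1 and the adjusted p calls of AJUBA, LATS2 and TEAD1 kept their direction and side of the threshold in all 15 alternatives, and no target changed sign. With median scaling 2 of the 10 targets were lower DEGs, AJUBA being the second, and with each sample left out in turn this number was 1 to 2. By the adjusted p with no fold limit 5 targets were lower and 2 higher, as were 2237 and 2339 of all genes. With each sample left out, the targets with an adjusted p below 0.05 numbered 3 to 5 lower and 1 to 3 higher. With no filter on low genes 3 were lower. With a pseudocount of 1 the DEGs over all genes were 161 lower and 391 higher, against 335 and 646. Whole reads gave 368 and 688. Median scaling shifted the median of all genes to -0.037.

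Samples share only replicate numbers: deviations of same-numbered samples correlated at -0.367, 0.073 and -0.17, so the numbers were not taken as pairs. A fit with a replicate block gave 332 lower and 642 higher DEGs. Among the targets 4 were lower and 2 higher by the adjusted p under the replicate block, with AXL (0.0579) and AMOTL2 (0.053) no longer below the threshold and ANKRD1 (0.0241) below it, and TGFB2 was no longer a DEG (0.0605). Of the other list genes, FAT1, DCHS1, LATS1, TAOK2, TEAD3, CRIM1 and CCDC80 also lost their adjusted p calls under the block, which left 3 Hippo regulators that fell and 1 that rose.

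Each value of the 10 targets rests on 942 to 20287 reads. With 3 samples a group, 1 hairpin and 1 cell line, an effect of the hairpin beyond UBC9 cannot be told apart from that of UBC9. RPKM values are not corrected for RNA composition.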
